A study of Mus musculus with 4 samples.

Results

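The Wnt system of the pressure-overloaded mouse heart was examined as 41 genes: 19 Wnt ligands, 10 Frizzled receptors, the Lrp5 and Lrp6 co-receptors, 6 secreted antagonists that bind Wnt proteins (Sfrp1, Sfrp2, Sfrp4, Sfrp5, Frzb and Wif1) and 4 Dickkopf proteins. They were picked by gene symbol, with earlier results of these data known, and are 41 of the 21762 named genes with a probe on the array. Wnt proteins are secreted, lipid-bearing signals. They bind Frizzled receptors together with Lrp5 or Lrp6, and in the best-known branch of the pathway this stabilises β-catenin, which enters the nucleus and acts with TCF/LEF factors on target genes. Secreted Frizzled-related proteins, Frzb and Wif1 bind Wnt outside the cell, whereas Dickkopf proteins bind the Lrp co-receptors. The pathway is active while the heart forms, and its parts are known to be re-used in the injured or overloaded adult heart.

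RNA came from hearts of male C57BL/6J mice without genetic alteration that had undergone transverse aortic constriction (TAC), a surgical narrowing of the aorta that makes the left ventricle pump against raised pressure, or a sham operation. The 4 conditions were sham and TAC at 2 weeks, which the study took as the phase of hypertrophy, and sham and TAC at 8 weeks, which it took as the phase of heart failure. By the labels, mice were aged 10 weeks at the earlier time and 16 weeks at the later one, whereas the methods give 12 weeks at surgery. Each condition was 1 single-color Agilent array hybridized with a pool of RNA from 4 to 6 mice, and all 4 arrays lay on 1 slide and in 1 scan. The spread between mice cannot be measured in such a design, no condition has a replicate, no test was run, and every change below is the ratio of 2 pools.

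A level is given here as log2 of a probe's processed signal over the 75th percentile of its array, so that 0 is the level of that percentile and a change is a difference of levels. The percentile lay between 206 and 248 signal units, no spot was saturated, and between 54.7% and 58.5% of probes were well above background. A gene was taken as measured on an array where its probe was well above background there. Because probes differ in brightness, levels were compared between arrays and not between genes. Of 399 probes spotted 10 times on each array, 286 gave spots well above background on a pair of arrays. For these the SD of the log2 change computed from single spots was taken by the mean level of the arrays compared. It was 0.28 at levels below -3, 0.24 from -3 to -2, 0.14 from -2 to 0 and 0.070 above 0, which is the error of a spot and not of the animals. Nppa, Nppb, Myh7 and Acta1, genes of the hypertrophic response, were over 2-fold higher after TAC at both times. The 7 cardiomyocyte markers were measured on all arrays, whereas the 4 skeletal muscle and 3 white fat markers were not measured on any.

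Among the genes measured on all arrays, the largest changes were those of secreted antagonists and Dkk3, and they did not all run the same way. At 2 and 8 weeks after surgery, Frzb in TAC hearts was 3.38-fold and 5.04-fold above sham, Dkk3 was 3.09-fold and 2.25-fold higher, and Sfrp2 was 2.73-fold and 1.83-fold higher. Sfrp5 was 2.10-fold and 2.54-fold lower, and Wif1 was 1.94-fold and 2.60-fold lower. No Wnt ligand and no receptor measured on all arrays changed over 1.5-fold at both times. Among all genes 2.08% were higher and 1.14% lower at both times, so an absence among so few genes is not a result about them.

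The table of RefSeq promoter windows used here matched 4 of these 5 genes, and the windows are shown because the genes moved together within each direction. Each window runs 5′ to 3′ on the strand of the gene, from 250 bases before to 50 bases after the RefSeq start in GRCm38.p6. Frzb lies at chr2:80447347-80447646 on the minus strand, Sfrp2 at chr3:83766071-83766370 on the plus strand, Sfrp5 at chr19:42202203-42202502 on the minus strand and Wif1 at chr10:121033754-121034053 on the plus strand. Capitals mark matches to the motifs described after the sequences.
Frzb: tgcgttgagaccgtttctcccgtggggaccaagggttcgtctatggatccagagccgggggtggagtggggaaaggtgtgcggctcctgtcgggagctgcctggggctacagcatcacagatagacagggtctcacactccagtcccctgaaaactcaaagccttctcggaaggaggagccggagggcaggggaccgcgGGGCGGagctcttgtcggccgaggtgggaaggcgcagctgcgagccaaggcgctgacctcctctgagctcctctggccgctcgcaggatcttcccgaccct
Sfrp2: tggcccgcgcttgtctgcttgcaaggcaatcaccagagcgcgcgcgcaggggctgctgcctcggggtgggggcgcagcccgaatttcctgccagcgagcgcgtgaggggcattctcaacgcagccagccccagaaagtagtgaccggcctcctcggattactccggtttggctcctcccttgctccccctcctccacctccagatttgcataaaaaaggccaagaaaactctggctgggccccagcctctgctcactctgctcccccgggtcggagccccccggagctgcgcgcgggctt
Sfrp5: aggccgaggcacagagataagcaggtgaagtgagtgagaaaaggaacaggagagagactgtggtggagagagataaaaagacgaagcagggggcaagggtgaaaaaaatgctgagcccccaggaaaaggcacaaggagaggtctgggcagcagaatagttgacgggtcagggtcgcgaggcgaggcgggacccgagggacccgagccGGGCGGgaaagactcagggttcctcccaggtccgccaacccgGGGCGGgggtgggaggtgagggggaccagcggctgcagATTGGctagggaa
Wif1: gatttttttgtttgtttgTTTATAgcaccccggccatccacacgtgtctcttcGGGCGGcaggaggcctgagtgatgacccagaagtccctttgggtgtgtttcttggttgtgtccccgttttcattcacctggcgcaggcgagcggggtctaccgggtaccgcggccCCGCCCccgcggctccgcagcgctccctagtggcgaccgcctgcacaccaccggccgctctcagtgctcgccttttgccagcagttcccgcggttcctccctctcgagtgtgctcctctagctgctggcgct

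The letters searched, on both strands, were those of the Sp1 GC box (GGGCGG), the CCAAT box (CCAAT), the TATA box (TATAAA), AP-1 (TGACTCA) and the TCF/LEF factors (CTTTGAT or CTTTGAA). Frzb held 1 GC box. Sfrp5 held 2 GC boxes and, on the opposite strand, 1 CCAAT box, while Wif1 held 2 GC boxes, 1 of them on the opposite strand, and 1 TATA box on the opposite strand. Sfrp2 held none of these letters, and none of the 4 windows held the AP-1 or TCF/LEF letters. Of 32851 mouse promoter windows of this length, 35.7% hold the GC box, 37.4% the CCAAT box, 13.6% the TATA box, 5.2% the AP-1 and 8.65% the TCF/LEF letters. The GC content of the 4 windows lay between 61.3% and 66%.

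Of the 41 genes, 25 were measured on all 4 arrays, 29 on at least 1 and 12 on none. The 12 were the ligands Wnt2, Wnt3, Wnt3a, Wnt4, Wnt7b, Wnt8b, Wnt10a and Wnt10b, the receptor Fzd10, and the antagonists Sfrp4, Dkk1 and Dkk2. Dkk4 was measured only on the TAC array at 2 weeks, Wnt7a only on the sham array at 8 weeks, and Fzd7 and Wnt9b on all but the sham array at 2 weeks.

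A gene was counted over 2-fold where the brighter of the arrays compared measured it. At 2 weeks 4 of 28 genes were over 2-fold higher after TAC (Frzb, Dkk3, Sfrp2 and Wnt9b), which is 14.3% beside 2.46% of all named genes. Only Sfrp5 was over 2-fold lower, which is 3.57% of the 28 beside 1.21% of all genes. At 8 weeks 3 of 28 were higher (Frzb, Dkk3 and Sfrp1) and 3 were lower (Sfrp5, Wif1 and Wnt7a), 10.7% in each direction, beside 3.31% and 2.07% of all genes. Wnt9b at 2 weeks and Wnt7a at 8 weeks were below background on the dimmer array, and for Wnt7a the bound is 1.39-fold. Among the 25 genes measured on all arrays, 3 were over 2-fold higher and 1 lower at 2 weeks, and 3 were higher and 2 lower at 8 weeks. The share of all genes is not given for this stricter rule, so these counts are not set against a background. Frzb and Dkk3 were higher at both times, 2 of 29 genes or 6.9% beside 0.769% of all genes, and Sfrp5 was lower at both, 1 of 29 or 3.45% beside 0.233%. These counts depended on the treatment of background. With normexp correction, which adds an offset and compresses the changes of dim probes, 1 gene (Dkk3) passed 2-fold at 2 weeks and none at 8 weeks.

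With a threshold of 1.5-fold and both arrays required to measure the gene, 5 of 25 genes were higher and 4 were lower at 2 weeks, 20% and 16%, beside 4.17% and 2.56% of all genes. At 8 weeks 4 of 27 were higher and 3 lower, 14.8% and 11.1%, beside 5.35% and 3.99%. Over 1.5-fold at both times stood 3 of 25 higher (Frzb, Dkk3 and Sfrp2), 12% beside 2.08% of all genes, and 2 lower (Sfrp5 and Wif1), 8% beside 1.14%. The median change of the 25 genes was 0.05 at 2 weeks and -0.03 at 8 weeks on the log2 scale. For all genes it was -0.01 and -0.01, so the middle of either set lay near no change. The median size of the change, whatever its direction, was 0.40 and 0.29, beside 0.15 and 0.17 for all genes.

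The sham arrays set a second scale for these numbers. Between the sham hearts at 8 and 2 weeks, 5 of 25 genes were over 1.5-fold higher at 8 weeks and 2 were over 1.5-fold lower, 20% and 8%, beside 1.6% and 1.22% of all genes. By the 2-fold rule above, 4 of 28 genes (Dkk3, Fzd2, Wnt7a and Wnt9b) were higher at 8 weeks and 0 were lower. Wnt7a and Wnt9b were below background in sham hearts at 2 weeks, and their bounds, 1.08-fold and 1.81-fold, do not reach 2-fold. The count is 14.3%, as after TAC at 2 weeks. The share of all genes is not given for it, so this count is not set against a background. The median size of the difference between the sham arrays was 0.22, beside 0.11 for all genes. Age, time after surgery and the particular animals of each pool cannot be told apart in this difference. Levels from -2 to 0 held 11 of the 25 genes. Of these, 7 changed over 1.5-fold after TAC at 2 weeks, 6 at 8 weeks and 4 between the sham arrays, or 63.6%, 54.5% and 36.4%, beside 7.96%, 10.8% and 3.29% of the 3494 genes in the same range of levels. Of the 8 genes below -2, 2, 1 and 3 changed over 1.5-fold in these comparisons, or 25%, 12.5% and 37.5%, beside 15.4%, 18.5% and 9.7% of all genes at such levels. None of the 6 genes above 0 did so, beside 3.56%, 5.7% and 0.68%.

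Both TAC arrays lay above both sham arrays in 6 of the 25 genes (Dkk3, Frzb, Sfrp1, Sfrp2, Fzd1 and Fzd6), 24%, and below both in 4 (Sfrp5, Wif1, Wnt11 and Fzd5), 16%. Among all genes 23.8% and 25.7% did so, and the shares of the Wnt genes were thus near or below those of all genes. The separation of the arrays alone is therefore not a result about these genes. The plot of levels on each array shows the 11 genes that changed over 1.5-fold at 2 or 8 weeks.

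**Figure D1:**
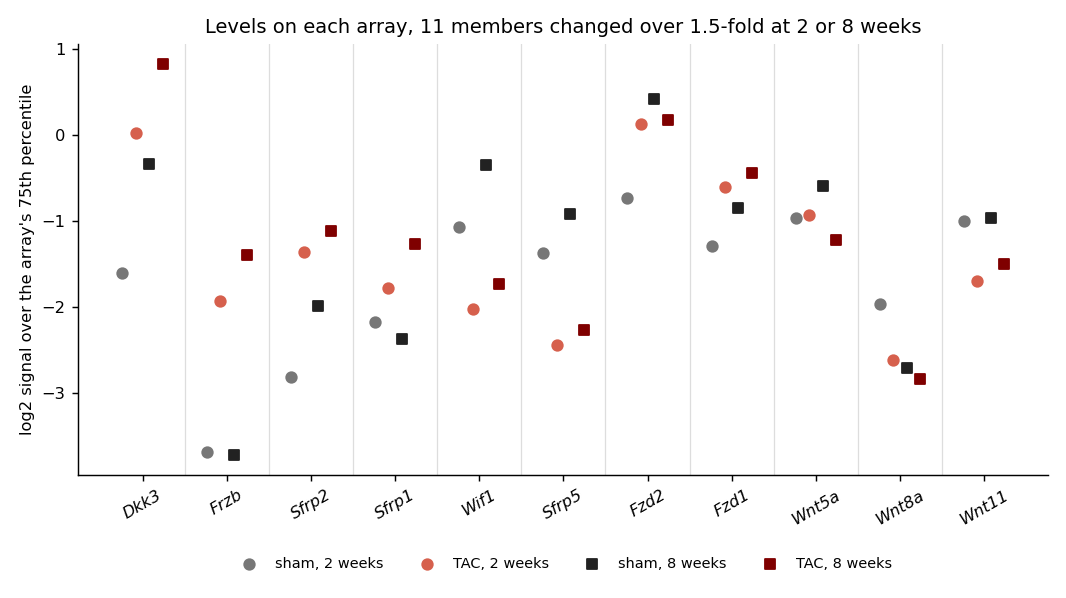
Level of 11 genes on each of the 4 arrays, as log2 signal over the 75th percentile of the array (y axis); circles are 2 weeks and squares 8 weeks, gray and black are sham and red tones TAC. Each point is 1 array of pooled RNA without an error bar, and levels of different genes cannot be compared. The TAC points of Frzb lie at -1.93 and -1.40 above sham points at -3.68 and -3.73, whereas for Fzd2 the sham point at 2 weeks stands apart from the other arrays.

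Frzb, a secreted antagonist first described in cartilage, had levels of -3.68 in sham and -1.93 in TAC hearts at 2 weeks, and of -3.73 in sham and -1.40 in TAC hearts at 8 weeks. Its sham arrays differed by 0.04 on the log2 scale, and both TAC arrays were far above them. In processed signal Frzb read 16.1 and 54.1 in sham and TAC at 2 weeks, and 16.7 and 94.5 at 8 weeks. The log2 changes of 1.76 and 2.33 were larger than the spot SD, 0.24 at the mean level of each pair of arrays, which does not cover the spread between pools. They were 1.80 and 2.29 when each TAC array was set against the sham array of the other time. With normexp correction they were 0.59 and 0.88.

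Sfrp2, a secreted Frizzled-related protein made by fibroblasts, had levels of -2.81 in sham and -1.36 in TAC hearts at 2 weeks, and of -1.99 in sham and -1.12 in TAC hearts at 8 weeks. Both TAC arrays were above both sham arrays, but the sham arrays themselves differed by 0.83, as much as TAC and sham differed at 8 weeks (0.87). The change of 1.45 at 2 weeks became 0.62 against the sham array at 8 weeks.

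Sfrp1, a close relative, had levels of -2.18 in sham and -1.78 in TAC hearts at 2 weeks, and of -2.37 in sham and -1.27 in TAC hearts at 8 weeks. The sham arrays were near each other, and the TAC array at 8 weeks was the highest. The log2 change was 0.40 at 2 weeks, under the threshold of 1.5-fold, and 1.10 or 2.14-fold at 8 weeks, the change just above 2-fold there. Just under 2-fold at 8 weeks was Sfrp2. Sfrp4 was not measured on any array.

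Sfrp5, another secreted Frizzled-related protein, known also as a product of fat cells, had levels of -1.38 in sham and -2.45 in TAC hearts at 2 weeks, and of -0.92 in sham and -2.27 in TAC hearts at 8 weeks. Wif1, whose name stands for Wnt inhibitory factor, had levels of -1.07 in sham and -2.03 in TAC hearts at 2 weeks, and of -0.36 in sham and -1.73 in TAC hearts at 8 weeks. In both genes the TAC arrays were below both sham arrays, and the sham array at 8 weeks was the highest of the 4, by 0.46 over the sham array at 2 weeks for Sfrp5 and by 0.71 for Wif1. The log2 changes of Sfrp5 were -1.07 and -1.35, and those of Wif1 were -0.96, just short of 2-fold, and -1.38. Against the sham array of the other time, Sfrp5 changed by -1.53 and -0.89 and Wif1 by -1.67 and -0.67, in the same direction as before.

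Dkk3, a Dickkopf family member that unlike Dkk1 is not an established blocker of the Lrp co-receptors, had levels of -1.61 in sham and 0.02 in TAC hearts at 2 weeks, and of -0.34 in sham and 0.83 in TAC hearts at 8 weeks. Both TAC arrays were above both sham arrays, but the sham arrays differed by 1.27, more than sham and TAC at 8 weeks (1.17). The change of 1.63 at 2 weeks was 0.36 against the sham array at 8 weeks. The size of the change in Dkk3 at 2 weeks therefore turned on which sham pool it was set against. Dkk1 and Dkk2 were not measured, and Dkk4 had a measured level of -4.35 on the TAC array at 2 weeks alone, close to the lowest signal well above background there (-4.37).

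**Figure D2:**
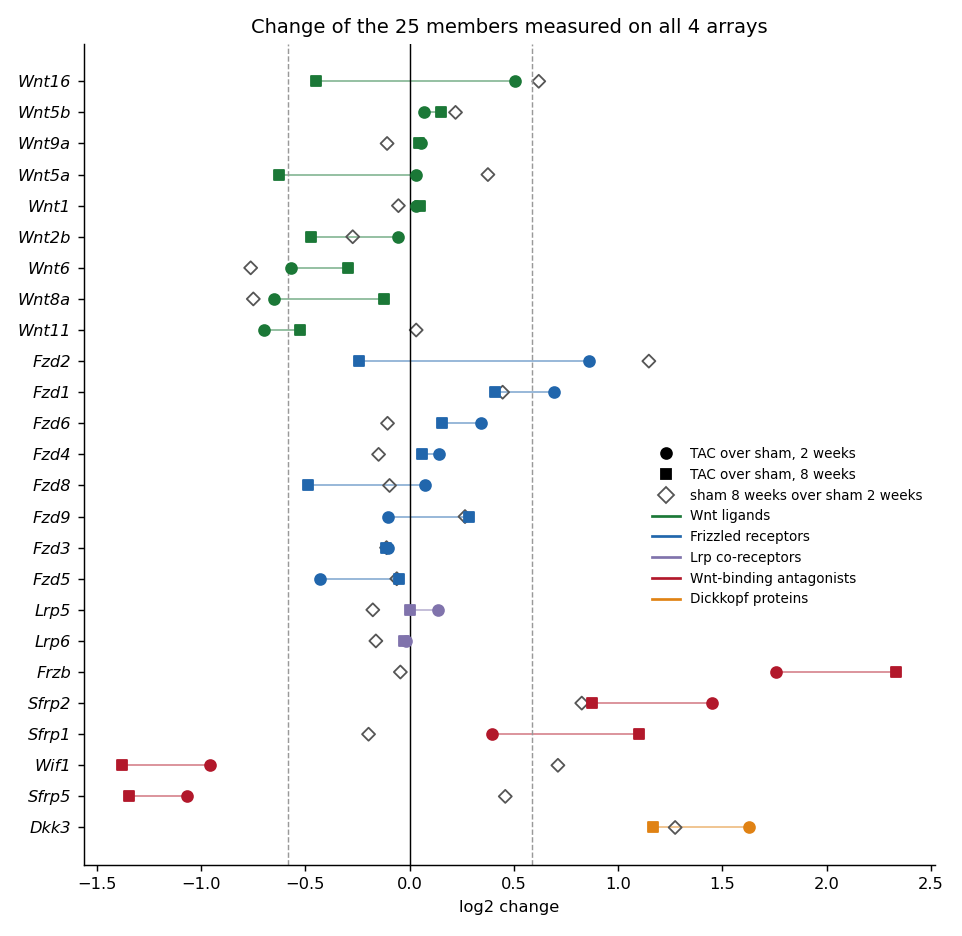
Log2 change (x axis) of the 25 genes measured on all 4 arrays, grouped by role: filled circles are TAC over sham at 2 weeks, filled squares TAC over sham at 8 weeks, and open diamonds sham at 8 weeks over sham at 2 weeks. Dashed lines mark 1.5-fold, and each point is the ratio of 2 arrays without an error bar. Frzb, Sfrp2 and Dkk3 lie to the right and Sfrp5 and Wif1 to the left at both times, whereas the diamonds of Dkk3, Fzd2, Sfrp2, Wif1 and Wnt16 to the right and of Wnt6 and Wnt8a to the left also lie beyond 1.5-fold.

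Markers of several cell types also changed. Of the 9 fibroblast markers, all measured on all arrays, 5 were over 1.5-fold higher after TAC at each time and none lower, with a median change of 0.89 and 0.75. Among all genes 4.17% and 5.35% were over 1.5-fold higher at 2 and 8 weeks. Postn, a matrix protein of activated fibroblasts, changed by 2.29 and 2.92 and Col1a1 by 0.97 and 1.20, while Tcf21, a factor of resident fibroblasts, changed by 0.07 and -0.55. Summed over the list, fibroblast markers stood at 210 and 290 times the 75th percentile in sham and TAC at 2 weeks, and at 235 and 341 times at 8 weeks. Between the sham arrays the largest difference among these 9 genes was 0.23 (Dcn).

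Among 5 markers of valve and cartilage-like cells, 3 were over 1.5-fold higher at 2 weeks, beside 4.17% of all genes. At 8 weeks 2 were higher and 1 lower, beside 5.35% and 3.99%. Sox9, a transcription factor of cartilage, changed by 1.22 and 1.41 and Comp, a cartilage matrix protein, by 1.0 and 1.92. The sham arrays of Comp differed by 0.92, nearly as much as TAC and sham at 2 weeks. Acan changed by 0.78 and 0.37, and Chad went the other way, by -0.10 and -0.62. Col2a1, the main collagen of cartilage, was not measured on any array. The summed level of the 4 measured markers was 1.07 and 1.88 in sham and TAC at 2 weeks, and 1.69 and 5.20 at 8 weeks.

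The atrial genes Myl7 and Sln were lower in TAC than in sham hearts at 8 weeks, by at least 3.64-fold and 2.55-fold. They were higher in sham hearts at 8 than at 2 weeks, by 0.63 on the log2 scale for Sln, and Myl7 was below background in sham hearts at 2 weeks. At 2 weeks Myl7 was at least 1.30-fold higher after TAC and Sln changed by 0.26. Myl4 changed by -0.01 at 2 weeks and by -0.52 at 8 weeks. Of the 4 atrial markers 2 were measured on all arrays, and their sum, nearly all of it Nppa, was 192 and 680 at 2 weeks and 151 and 925 at 8 weeks. For other lists the median changes at 2 and 8 weeks were 0.37 and 0.36 (macrophage) and 0.32 and 0.15 (smooth muscle and mural). They were 0.21 and -0.01 (endothelial), -0.04 and -0.17 (lymphocyte) and -0.19 and -0.19 (cardiomyocyte). The 4 nerve and glia markers were all lower after TAC at both times, with medians of -0.30 and -0.27. The part of any of these cell types in the changes of the antagonists was not tested. In RNA from a whole tissue, fewer cells of a type and less RNA per cell cannot be told apart.

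Wnt ligands had a narrower range of changes than the antagonists. Of 19 ligands, 9 were measured on all arrays, and their log2 changes ran from -0.70 to 0.51 at 2 weeks and from -0.63 to 0.15 at 8 weeks, with medians of 0.03 and -0.29. At 2 weeks 2 of the 9 were over 1.5-fold lower and 0 higher, beside 2.56% and 4.17% of all genes. At 8 weeks 1 was lower and 0 higher, beside 3.99% and 5.35%. Wnt11, which signals largely without β-catenin and takes part in forming the heart, had levels of -1.01 in sham and -1.71 in TAC hearts at 2 weeks, then of -0.97 in sham and -1.5 in TAC hearts at 8 weeks. Its sham arrays were 0.03 apart and both TAC arrays were lower, with changes of -0.70 and -0.53, the second just short of 1.5-fold.

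Wnt5a, a ligand of the same kind that signals through Ror2, had levels of -0.97 and -0.94 in sham and TAC hearts at 2 weeks, then of -0.59 in sham and -1.22 in TAC hearts at 8 weeks. The sham and TAC arrays overlapped, since only the TAC array at 8 weeks was low, and the change of -0.63 at 8 weeks was the one just beyond 1.5-fold. Wnt8a, a ligand known from the early embryo, had levels of -1.97 in sham and -2.62 in TAC hearts at 2 weeks, and of -2.72 in sham and -2.84 in TAC hearts at 8 weeks. Here only the sham array at 2 weeks stood apart, so the change of -0.65 at 2 weeks became 0.10 against the sham array at 8 weeks.

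Wnt6 and Wnt16 lay just inside 1.5-fold at 2 weeks. Wnt6 had levels of -2.73 in sham and -3.30 in TAC hearts at 2 weeks, and of -3.49 in sham and -3.79 in TAC hearts at 8 weeks, and the sham arrays differed by more (-0.76) than TAC from sham at either time (-0.57 and -0.29). Wnt16 had levels of -3.46 in sham and -2.96 in TAC hearts at 2 weeks, and of -2.84 in sham and -3.29 in TAC hearts at 8 weeks, with changes of 0.51 and -0.45 that ran in opposite directions. A second probe for Wnt16 was not measured on any array.

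Wnt9b and Wnt7a passed 2-fold at 1 time each, both against a signal below background. For such a gene the change is given as a bound, the bright level over the dim probe's own signal or, if that is lower, over the dimmest value on the dim array that was still well above background. Wnt9b, a ligand known from kidney development, had a level of -2.88 in TAC hearts at 2 weeks, -3.20 in sham and -3.04 in TAC hearts at 8 weeks, and was below background in sham hearts at 2 weeks (-4.24). It was thus at least 2.27-fold higher after TAC at 2 weeks, while its change at 8 weeks was 0.16. Wnt7a had a level of -3.95 in sham hearts at 8 weeks and was below background elsewhere, at least 1.39-fold lower after TAC at 8 weeks, a bound that does not reach 2-fold.

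By the brightest probe of each gene, Wnt1, the ligand for which the family is named, and the co-receptor Lrp6 changed least. Wnt1 had levels of 1.49, 1.52, 1.44 and 1.48 in sham and TAC at 2 weeks and sham and TAC at 8 weeks, which are nearly equal. A second Wnt1 probe was not measured on any array, and whether the brighter probe reads Wnt1 RNA was not tested. Wnt2b, Wnt5b and Wnt9a, also measured on all arrays, stayed within 1.5-fold at both times, with changes of -0.06 and -0.47, 0.07 and 0.15, and 0.05 and 0.04.

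Of the 10 Frizzled receptors, 8 were measured on all arrays. Their log2 changes ran from -0.43 to 0.86 at 2 weeks and from -0.49 to 0.41 at 8 weeks, 2 were over 1.5-fold higher at 2 weeks (25%, beside 4.17% of all genes) and none passed 1.5-fold at 8 weeks (beside 5.35% higher and 3.99% lower). Fzd1 had levels of -1.30 in sham and -0.60 in TAC hearts at 2 weeks, then of -0.85 in sham and -0.44 in TAC hearts at 8 weeks. Both TAC arrays were above both sham arrays, with changes of 0.69 and 0.41, the values nearest 1.5-fold from above at 2 weeks and from below at 8 weeks.

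Fzd2 had levels of -0.74 in sham and 0.13 in TAC hearts at 2 weeks, then of 0.41 in sham and 0.17 in TAC hearts at 8 weeks. The sham array at 2 weeks was low and the other arrays were close together, so that the change of 0.86 at 2 weeks, just short of 2-fold, became -0.29 against the sham array at 8 weeks. A second, dimmer probe for Fzd2 gave another pattern, since it was measured on both TAC arrays (-3.90 and -3.71) and on neither sham array. The 2 probes of Fzd2 thus disagreed at 8 weeks.

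The other Frizzled receptors measured on all arrays stayed within 1.5-fold at both times. Fzd4, the receptor of endothelial cells through which Norrin also signals, had levels between 3.16 and 3.45 and changes of 0.14 and 0.06. Fzd5 and Fzd8 changed by -0.43 and -0.05 and by 0.07 and -0.49, Fzd6 and Fzd9 by 0.34 and 0.16 and by -0.10 and 0.28, and Fzd3 by -0.11 at both times. Fzd7 was measured on both arrays at 8 weeks, with levels of -3.76 and -3.39 and a change of 0.37.

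The co-receptors Lrp5 and Lrp6, which all β-catenin signals of Wnt require, had some of the smallest changes by the brightest probe of each. Lrp5 had levels of 3.22 and 3.36 in sham and TAC at 2 weeks, then of 3.04 in sham and 3.05 in TAC hearts at 8 weeks, and Lrp6 had 3.07, 3.05, 2.91 and 2.88. Their changes were 0.14 and 0.00 for Lrp5 and -0.02 and -0.03 for Lrp6. A second Lrp6 probe, also measured on all arrays, read -1.03, -1.14, -1.0 and -0.21 in the same order. Its change at 8 weeks was 0.79, over 1.5-fold higher, where the brighter probe did not rise, so the 2 probes of Lrp6 disagreed there.

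**Figure D3:**
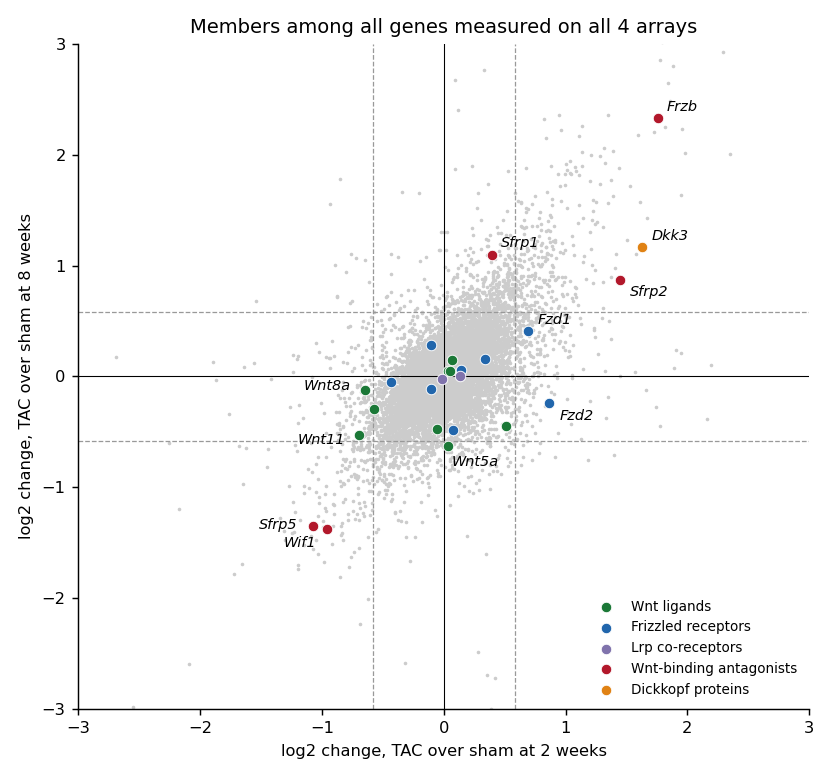
Log2 change of TAC over sham at 2 weeks (x axis) and at 8 weeks (y axis) for the 14295 genes measured on all 4 arrays (gray) and the 25 Wnt genes among them (colored by role); dashed lines mark 1.5-fold and 19 genes lie outside the axes. The antagonists Frzb, Sfrp2, Sfrp5 and Wif1 and Dkk3 lie outside the dense center in the upper right and lower left corners, whereas the ligands and co-receptors lie within or close to it.

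Other genes of the pathway were described by lists of parts of the pathway with 92 genes besides the 41. Of these 69 were measured on all arrays, and 59 stayed within 1.5-fold at both times. At 2 weeks 5 were over 1.5-fold higher and 1 was lower, at 8 weeks 3 were higher and 3 lower, and 2 were higher at both times, with medians of 0.02 and -0.03. The shares were 7.25% and 1.45% at 2 weeks, beside 4.17% and 2.56% of all genes, and 4.35% in each direction at 8 weeks, beside 5.35% and 3.99%, so these genes as a group were near the background. None of the 8 genes of Wnt secretion and release, among them Porcn, which adds the lipid to Wnt, and Wls, which carries it to the cell surface, changed over 1.5-fold. None of the 19 cytoplasmic genes did so either, among them Ctnnb1, which encodes β-catenin and changed by 0.21 and 0.06, and none of the 14 measured nuclear genes.

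Among other receptors, Ror2, a receptor of Wnt5a, had levels of -2.95 in sham and -1.95 in TAC hearts at 2 weeks, with changes of 1.01 and 0.57. Lgr6, a receptor of R-spondins, changed by -0.87 and -0.57. Among the other secreted and membrane modulators, Dkkl1, a Dickkopf-like protein, changed by 1.66 at 2 weeks and by -0.12 at 8 weeks, and Kremen1, a membrane protein that binds Dickkopf proteins, by 0.46 and 0.65. Rspo1, an R-spondin that enhances Wnt signals, changed by 0.06 and -0.80, and Znrf3, the ubiquitin ligase that removes Frizzled receptors and that R-spondins counter, by 0.22 and -0.81.

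Of 21 genes listed as targets of β-catenin, 11 were measured on all arrays. At 2 weeks 3 were over 1.5-fold higher (27.3%, beside 4.17% of all genes) and none lower (beside 2.56%). At 8 weeks 2 were higher and 2 lower, 18.2% in each direction, beside 5.35% and 3.99%. Ccn4 and Ccn5, matricellular proteins formerly called Wisp1 and Wisp2 for their induction by Wnt1, changed by 0.77 and 0.67 and by 0.67 and 1.52. Nkd1, a feedback inhibitor, changed by 0.67 and -0.35, and Tnfrsf19, a receptor of the tumor necrosis factor family, by -0.39 and -0.80. Myc, a driver of cell growth, was below background in sham hearts at 2 weeks. Taken over its own dim signal, it was 1.86-fold higher after TAC at that time. It was 2.06-fold higher at 8 weeks, and Myc is not among the counts of genes measured on all arrays. Axin2, the target most often used as a reading of the pathway, was measured on the arrays at 2 weeks alone, with levels of -3.58 in sham and -4.16 in TAC hearts. Several genes of this list, Ccn4 and Ccn5 among them, are also made by fibroblasts, whose markers were higher after TAC, and the part of these cells was not tested.

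**Figure D4:**
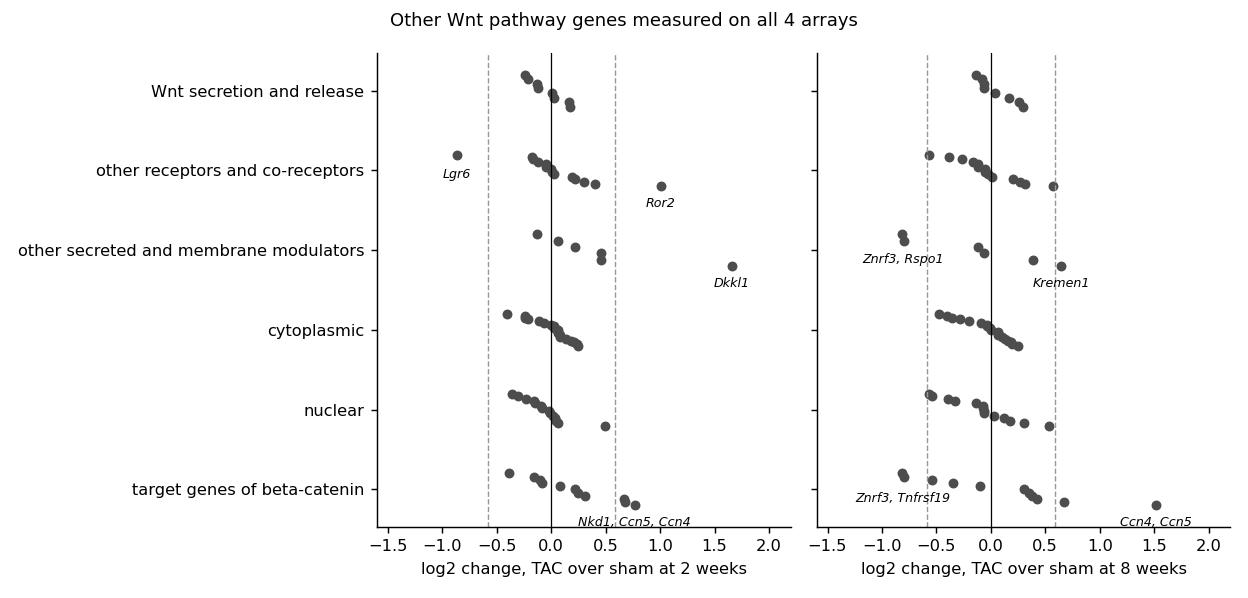
Log2 change of TAC over sham at 2 weeks (left) and 8 weeks (right) for other Wnt pathway genes measured on all 4 arrays; each point is 1 gene, a row is a list of genes, and dashed lines mark 1.5-fold. A gene in 2 lists is drawn in both, as is Znrf3. The rows of secretion and of cytoplasmic and nuclear parts lie within 1.5-fold, and the named genes are those beyond it.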

How the data were processed

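The study's 4 arrays, 1 per condition, were grouped by their labels. The scanner files that the authors deposited hold, for every spot, a processed signal. It is an intensity after background subtraction and spatial detrending, with no normalization between arrays. A deposited table holds this intensity after multiplication by 1 factor per array. The file headers name Feature Extraction 10.7.3.1, whereas the submitters' processing notes name version 9.1. The methods name GeneSpring GX11 for the analysis, and its normalization is not given in the sources used here.

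Log2 of the processed signal minus the 75th percentile over the 55681 probes other than controls was used. Spots marked as outliers were dropped, and repeated spots were averaged. The arrays name probes by accession. Of the probes 29501 were named through RefSeq (26582) or GENCODE (2919) accessions, and 26180 remained unnamed. The brightest probe stood for a gene; 48 probes represented the 41 genes, and 7 genes had 2 probes. Of 42 symbols that fit the rule in RefSeq, 1 (Fzd10os) had no probe. With 1 array per condition nothing was tested, so that genes are described by folds, counts and medians. Values on every array are given for genes over 1.5-fold at either time, for those called over 2-fold, for those nearest each threshold and for the pair with the smallest changes. The genes, marker lists and pathway lists were chosen with earlier results of these data known. The counting at 2-fold was tested on simulated data with planted changes well beyond that threshold. This checks the code, and not the 1.5-fold rule, changes near a threshold or the spread between pools. The array number limits the precision. Other experiments of the study were not analysed here.

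Alternatives were normexp background correction with an offset of 50 on the median signal (limma 3.58.1, R 4.3.3), quantile normalization, the median as scale, no normalization, the deposited table, other filters on dim probes, the mean over probes, a threshold of 3-fold and outlier spots kept. Each TAC array was also set against the sham array of the other time, which was chosen after seeing the data. Promoter windows are those of RefSeq for GRCm38.p6. Computations used Python 3.11.15, pandas 2.3.3, numpy 2.4.6 and scipy 1.17.1.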

Additional observations from a re-analysis of the deposited data

Results flagged for a closer look

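A second probe for Fzd2, not used for the comparisons because a brighter probe exists, gave a signal in TAC hearts that was below background in sham hearts at both times. TAC over sham came to at least 1.12-fold at 2 weeks and 1.42-fold at 8 weeks. Both bounds lie below 1.5-fold, and the difference between the 2 probes was not tested.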

How the results depend on the processing

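With 1 array of pooled RNA per condition, a change can be set against the error of a spot alone, and the dim genes below a level of -2 carry the larger spot error. Results were the same or close with quantile normalization, the median as scale, the deposited table and outlier spots kept. With normexp correction and an offset of 50, which compresses dim signals by its construction, 1 gene was over 2-fold changed at 2 weeks and 0 at 8 weeks, hence 0 at both, in place of 5, 6 and 3, and over 1.5-fold stood 4 genes at 2 weeks and 4 at 8 weeks, in place of 9 and 7. The split at 1.5-fold was then 4 higher and 0 lower at 2 weeks and 2 and 2 at 8 weeks. A threshold of 3-fold left 2 genes at each time, and 1 gene (Frzb) passed at both. The other gene at 8 weeks was Wnt7a, whose bound is 1.39-fold. Without a filter on dim probes, 12 genes were over 1.5-fold changed at 8 weeks and the median change there was -0.18, since genes below background were counted. Without normalization the median change at 8 weeks was 0.14. With each TAC array against the sham array of the other time, 11 genes were over 1.5-fold changed at 8 weeks and 1 (Frzb) was over 2-fold changed at both times. The 2-fold counts became 1 higher and 3 lower at 2 weeks, in place of 4 and 1, and 4 higher and 1 lower at 8 weeks, in place of 3 and 3. At 2 weeks the change turned to -0.29 for Fzd2, 0.10 for Wnt8a, 0.19 for Wnt6 and -0.11 for Wnt16, and at 8 weeks to 0.90 for Fzd2 and 0.17 for Wnt16, among other genes with changes near 0. The values for Wnt7a, -1.56 at 2 weeks and 0.25 at 8 weeks, rest on signals below background and give no direction. With the mean over measured probes the change of Fzd2 at 8 weeks turned positive, but it takes in a probe below background on both sham arrays, for which a bound alone can be given. Of 272 single values of 17 named genes over these alternatives, 23 changed sign, and most of the 23 had a change within 1.5-fold to begin with.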
